A study of Homo sapiens with 3 samples.

Results

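Imprinted growth genes are genes of which mainly the copy from 1 parent is active, and many of them set the size of the fetus and placenta. The 10 described here are *H19*, *IGF2*, *MEG3*, *DLK1*, *PEG10*, *PEG3*, *MEST*, *NDN*, *MAGEL2* and *PLAGL1*, chosen by name among the 61193 genes to which the measured transcripts belong. Their RNA was measured in 3 biological replicates of HEK293T, a cell line from human fetal kidney with the large T antigen of SV40. The labels give no treatment, and cells were collected a day after seeding, so there is 1 condition and no comparison between conditions. The libraries were made with a kit that primes at the poly(A) tail and reads the 3′ end of each RNA. The parental copies cannot be told apart in these files, so the values below are levels of RNA and say nothing of imprinting itself.

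In many imprinted domains, a region methylated on 1 parental copy decides which genes of the domain are transcribed from that copy. On chromosome 11, the insulator protein CTCF binds the unmethylated maternal copy and keeps *IGF2*, the gene of a fetal growth factor, from enhancers that then act on the long non-coding RNA *H19*. *DLK1*, a membrane protein with EGF-like repeats related to Notch ligands, and the long non-coding RNA *MEG3* form a similar pair on chromosome 14. *PEG10*, *PEG3*, *MEST*, *NDN*, *MAGEL2* and *PLAGL1* are active mainly on the paternal copy.

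Read counts of 6262175 to 8521624 per replicate fell on the listed transcripts. The share on mitochondrial genes was 9.59%, 5.70% and 25.8% in replicates 1, 2 and 3. By a 1-sided bound at 95%, up to 3 counts are within what a 0 allows, or 0.427, 0.479 and 0.352 counts per 1000000 (CPM) in that order. The 2-sided intervals below reach higher for a 0. Such limits and the intervals below cover counting error only. Of 8 genes chosen as marks of HEK293T cells, 4 reached a mean of 1 TPM, a count scaled by transcript length to a total of 1000000 per library, and the highest were *INA*, *PAX2* and *LHX1* with 38.8 ± 16.5, 8.96 ± 3.24 and 1.66 ± 0.251 TPM (SD, n = 3). *KRT18*, *NEFM* and *NEFL* of that list were at 0 in every replicate, and *VIM*, an abundant filament gene of cultured cells, was listed with 0, 6 and 5 counts. Of 7 genes that mark other cell types, *COL1A1* with 24.8 ± 0.330 TPM and *COL3A1* with 1.68 ± 0.935 TPM (SD, n = 3) were the ones at 1 TPM or more, and *PTPRC*, *CDH5*, *ALB* and *HBB* were at 0. *VIM* and the genes at 0 were named after their values were seen.

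None of the 10 imprinted growth genes reached a mean of 1 TPM, the level taken here as expressed, in any of the 3 replicates or in their mean. Over all 61193 genes, 21.7% reached it, and 38.2% of the 19926 protein-coding genes did. None of the 10 had more than 3 counts in every replicate, a mark that 19.8% of all genes passed. The genes together held 3, 1 and 9 counts in replicates 1, 2 and 3. Their summed level was 0.565, 0.0604 and 0.220 TPM, or 0.282 ± 0.258 TPM (SD, n = 3), and 0.140 TPM without replicate 1. *MAGEL2*, *MEST* and *MEG3* held all of these counts, and the other 7 genes were listed at 0 in every replicate. A 0 in every replicate was common, with 34962 of all 61193 genes listed so.

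A listed 0 does not have the same weight for every gene, because reads were counted per transcript. A read of 75 bases that lies in exons shared by several listed transcripts has no single transcript to be counted on, and how the counting treated such reads is not given in the sources used here. Own bases are, below, the exonic bases of a transcript that lie in no exon of another listed transcript of that strand in GENCODE 44. Of the 148 listed transcripts of the 10 genes, 98 had no own base and 10 had at least 75 own bases, the length of a read, among their last 300. Those 10 transcripts belong to *DLK1*, *IGF2*, *MAGEL2*, *MEST*, *NDN* and *PLAGL1*, and 8 of them were at 0 in every replicate. *H19*, *MEG3*, *PEG10* and *PEG3* had none.

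**Figure D1:**
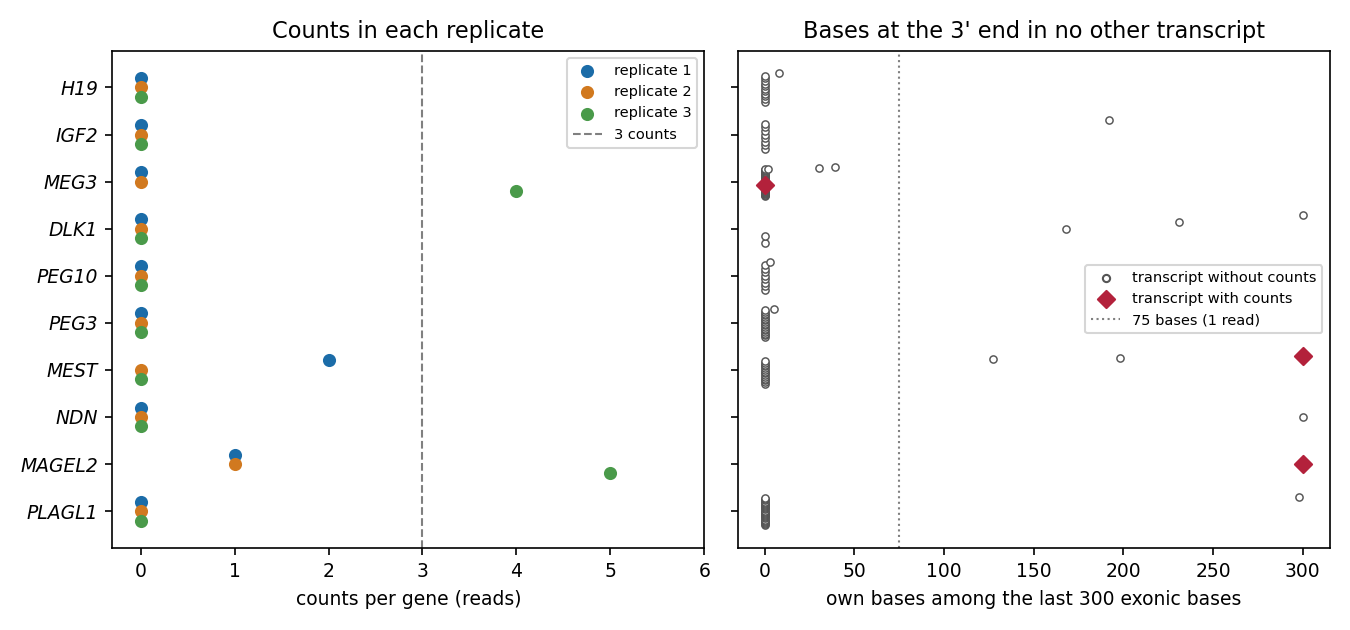
Left, counts of each gene (horizontal axis, reads) in replicates 1 to 3, with a dashed line at 3 counts. Right, own bases among the last 300 exonic bases of each listed transcript (1 symbol per transcript, diamonds for transcripts with counts, dotted line at 75 bases). Replicate 3 of *MEG3* and of *MAGEL2*, with 4 and 5 counts, are the values above 3, and the transcripts of *H19*, *MEG3*, *PEG10* and *PEG3* lie left of 75 bases.

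Across the genome, own bases at the 3′ end and counts moved together. Of the 7840 protein-coding genes whose canonical transcript had no own base among its last 300, 26.1% had more than 3 counts in every replicate. Among the 7600 whose last 300 bases were all own, 56.3% passed. Of all genes with at least 1 transcript that owned 75 of its last 300 bases, 22.0% passed, and of the 8405 genes with no such transcript 5.5% did. Whether the shared bases account for this was not tested. *IRS4*, which encodes an adaptor of insulin and IGF receptors, had no transcript with 75 own bases at its end and yet held 17054, 15057 and 20103 counts.

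**Figure D2:**
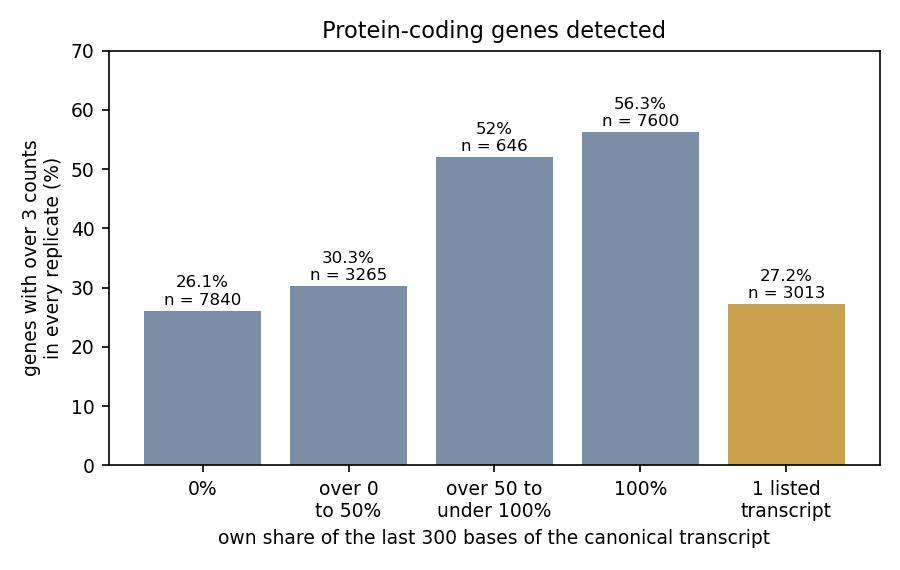
Share of protein-coding genes with more than 3 counts in every replicate (vertical axis, percent), by the own share of the last 300 bases of the canonical transcript (4 bars, left) and for genes with 1 listed transcript (right bar), with the number of genes above each bar. The share was 26.1% at an own share of 0% and 56.3% at 100%, and 27.2% for genes with 1 listed transcript.

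*NDN* and *MAGEL2* lie near each other on chromosome 15, in the region that is lost on the paternal copy in Prader-Willi syndrome. Both encode proteins of the MAGE family, and each has 1 exon and 1 listed transcript. All bases of these transcripts are own bases, and their last 300 overlap no annotated transcript of the opposite strand either. As far as the annotated transcripts checked go, the limit described above does not touch their counts. Listed transcripts without a match in the annotation, and the opposite strand farther from the end, were not checked. Of the 3013 protein-coding genes with 1 listed transcript, 27.2% had more than 3 counts in every replicate and 56.2% were at 0 in every replicate.

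*NDN* (ENSG00000182636, chromosome 15 of GRCh38 from 23685400 to 23687305 on the minus strand), which encodes necdin, a protein of neurons that have stopped dividing, had 0, 0 and 0 counts. On its transcript of 1906 bases, 3 counts would equal 0.347, 0.411 and 0.236 TPM in replicates 1, 2 and 3. The level of *NDN* was thus under 1 TPM in every replicate, as far as counting error goes.

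*MAGEL2* (ENSG00000254585, chromosome 15 from 23643549 to 23647867 on the minus strand), which encodes a partner of the ubiquitin ligase TRIM27, had 1, 1 and 5 counts. These equal 0.0510, 0.0604 and 0.174 TPM on a transcript of 4319 bases, with a mean of 0.0950 ± 0.0682 TPM (SD, n = 3), or 0.0557 TPM without replicate 3. The count was highest in replicate 3, where it passed the limit of 3 counts. In CPM, it was 0.142 in replicate 1 (95% exact Clopper-Pearson interval 0.00361 to 0.794), 0.160 in replicate 2 (0.00404 to 0.890) and 0.587 in replicate 3 (0.191 to 1.37). The intervals overlap, and a difference between the replicates was not tested. *MAGEL2* was the only gene of the 10 with at least 1 count in every replicate.

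The promoters of this pair are shown because the study asks where C-rich DNA folds into i-motifs (iMs), 4-stranded structures of paired cytosines. The G-rich strand opposite such DNA can in principle fold into a G-quadruplex (G4), though the structures need not form at the same place. Each line gives the 250 bases before the transcription start in the RefSeq table of GRCh38.p14, 5′ to 3′ on the strand of the gene, at chr15:23687306-23687555 for *NDN* and chr15:23647868-23648117 for *MAGEL2*. Capitals mark stretches with 4 tracts of at least 3 Cs, or of at least 3 Gs, with 0 to 7 bases between tracts.
NDN: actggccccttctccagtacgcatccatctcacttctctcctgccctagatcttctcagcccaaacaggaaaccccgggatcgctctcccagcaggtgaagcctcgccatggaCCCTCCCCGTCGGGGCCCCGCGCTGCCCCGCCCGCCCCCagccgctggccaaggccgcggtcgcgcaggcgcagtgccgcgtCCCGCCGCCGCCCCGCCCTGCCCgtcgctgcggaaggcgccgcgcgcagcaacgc
MAGEL2: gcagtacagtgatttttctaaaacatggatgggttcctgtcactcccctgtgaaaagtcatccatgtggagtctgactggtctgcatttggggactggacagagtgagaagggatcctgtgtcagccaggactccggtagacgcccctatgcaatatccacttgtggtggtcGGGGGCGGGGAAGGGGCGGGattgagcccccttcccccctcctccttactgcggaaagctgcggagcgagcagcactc
*NDN* has 2 such stretches of C tracts, of 39 and 23 bases, on the strand of the gene. *MAGEL2* has 1 stretch of G tracts, of 20 bases, so that its C tracts lie on the opposite strand. The window of *NDN*, with 50 bases after the start included, has a GC content of 72.0% and 35 CpG pairs, and that of *MAGEL2* 56.7% and 9. The medians over all 35116 promoters of the table were 58.7% and 14.0.

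Of the 10 genes, 6 were matched in that table, namely *H19*, *MAGEL2*, *MEG3*, *MEST*, *NDN* and *PLAGL1*, with 16 windows of 300 bases in all. Windows of 1 gene can overlap. Tracts of either kind were found in 5 of the 16 windows, from 4 genes, compared with 26.8% of all promoters, of which 14.2% had C tracts and 15.5% G tracts on the strand of the gene. *MEST* has 2 stretches of G tracts on the plus strand, at chr7:130491860-130491886 and chr7:130492025-130492053, and *PLAGL1* has 1 of C tracts on the minus strand, at chr6:144064598-144064620. These 3 stretches follow in capitals, since every base belongs to the matched stretch.
MEST, first: GGGAGCAGCGGGGTCTTGGGGAGGGGG
MEST, second: GGGCGGGCTAGGGGCGGGGCGCGGGTGGG
PLAGL1: CCCGCCCCTTCCTCCCCTTCCCC
No tracts of this kind were found in the windows of *H19* and *MEG3*. A match describes the letters only, and CUT&Tag signal at these promoters was not analysed here.

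*DLK1* (ENSG00000185559) spans 100725705 to 100738224 of chromosome 14, plus strand, and had 0, 0 and 0 counts on its 5 listed transcripts. Its canonical transcript of 4657 bases has 3317 own bases and owns all of its last 300, where 3 counts would equal 0.142, 0.168 and 0.0966 TPM. The shorter protein-coding transcript of 1324 bases has no own base, as all of its exons lie within other transcripts. An RNA that ended there would have been seen at its 3′ end only in shared sequence. By the limit of 3 counts, the long form of *DLK1* was thus at or under 0.168 TPM in every replicate, as far as counting error goes.

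*IGF2* (ENSG00000167244) spans 2129112 to 2158391 of chromosome 11, minus strand, and had 0, 0 and 0 counts on 9 listed transcripts. Its canonical transcript of 5580 bases has 415 own bases, none of them among its last 300, which 2 other transcripts of the gene and 1 of the gene ENSG00000240801 also cover. The only end with 75 own bases is that of a retained-intron transcript of 482 bases. *INS-IGF2*, the read-through gene from insulin, and the antisense gene *IGF2-AS* had 0, 0 and 0 and 0, 1 and 2 counts (both named after their values were seen). Expression of *IGF2* was not detected, and the shared end limits what its 0 can show.

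*PLAGL1* (ENSG00000118495, chromosome 6 from 143940300 to 144064599 on the minus strand), a zinc finger transcription factor that activates other imprinted growth genes, had 0, 0 and 0 counts on 26 listed transcripts. Of these, 4 had own bases, and 1, of 505 bases and without a defined coding sequence, had 298 own bases among its last 300. Its canonical transcript was not among those listed. The last 300 bases of its longest listed transcript, of 4430 bases, are also covered by 7 other transcripts of the gene.

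*MEST* (ENSG00000106484, chromosome 7 from 130486171 to 130506465 on the plus strand), which encodes an enzyme of the alpha/beta hydrolase fold, had 2, 0 and 0 counts. Both reads fell on 1 retained-intron transcript of 857 bases, which owns all of its last 300 bases. They equal 0.514 TPM in replicate 1, and the mean was 0.171 ± 0.297 TPM (SD, n = 3), or 0 without replicate 1. This was the highest mean among the 10 genes, from a count within the limit of 3. TPM divides by length, and *MAGEL2* had 1, 1 and 5 counts on a transcript of 4319 bases. The canonical transcript of *MEST*, of 2646 bases and 12 exons, has 28 own bases and none among its last 300, where 7 other transcripts of the gene and 1 of *COPG2* on the opposite strand overlap it. The 4 processed pseudogenes *MESTP1* to *MESTP4* share between 2.56% and 25.2% of their 31-base words with *MEST* transcripts and were at 0 in every replicate. Since most of their words are not shared with *MEST*, the 0 on these copies cannot show whether reads of *MEST* were lost.

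*H19* (ENSG00000130600) spans 1995166 to 2004552 of chromosome 11, minus strand, and had 0, 0 and 0 counts on 12 listed transcripts. For 11 of these, the deposited length differs from that in GENCODE 44, so the own bases of *H19*, 392 in all, describe models other than those counted on. Its canonical transcript was not listed, and the longest, of 2348 bases, has 8 own bases among its last 300, which 10 other *H19* transcripts overlap. *MIR675*, the microRNA gene within an exon of *H19*, was at 0 in every replicate, and a poly(A)-primed library is not made to read microRNAs.

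*MEG3* (ENSG00000214548) spans 100779410 to 100861031 of chromosome 14, plus strand, and had 0, 0 and 4 counts. Its 50 listed transcripts are the most of the 10 genes. The 4 counts fell on 1 transcript of 12998 bases, which has 6354 own bases but none among its last 300, and equal 0.0461 TPM. The mean was 0.0154 ± 0.0266 TPM (SD, n = 3), and it was 0 without replicate 3. In CPM the value of replicate 3 was 0.469 (95% exact Clopper-Pearson interval 0.128 to 1.20), and the upper bounds of the same interval were 0.526 and 0.589 in replicates 1 and 2, with 0 counts each. These intervals overlap, and the difference between the replicates was not tested.

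*PEG10* (ENSG00000242265, chromosome 7 from 94656325 to 94669695 on the plus strand), which descends from the *gag* and *pol* genes of a retrotransposon, had 0, 0 and 0 counts on 9 listed transcripts. The 9 transcripts have 108 own bases in all, and the canonical one, of 2585 bases, has none. Its last 300 bases are also covered by 5 other *PEG10* transcripts. The 4 transcripts with the longest last exon end within 3 bases of each other, and those 3 bases are the own bases of that exon.

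**Figure D3:**
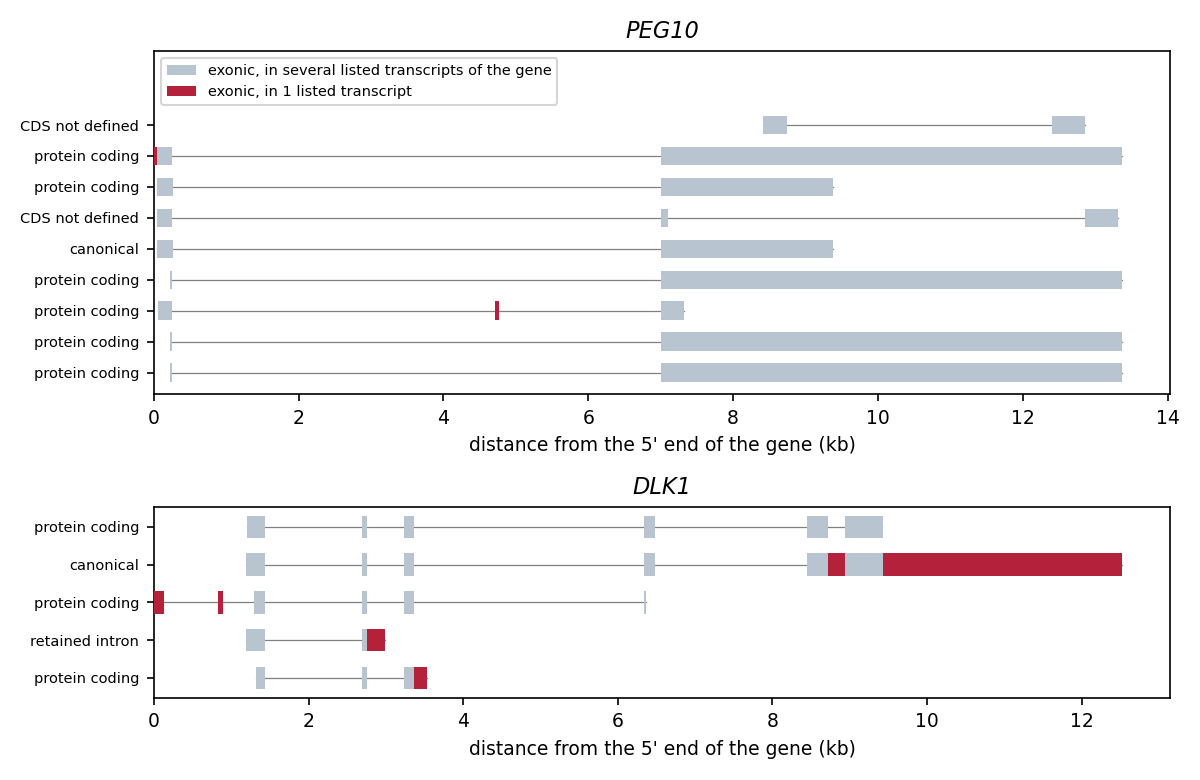
Listed transcripts of *PEG10* (top) and *DLK1* (bottom), to scale, by distance from the 5′ end of the gene in kb, with exons as boxes, introns as lines and own bases in red. *PEG10* has 108 own bases, of which 3, too few to be seen at this scale, lie in its long last exon, whereas the canonical transcript of *DLK1* owns 3317 bases up to its 3′ end.

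*PEG3* (ENSG00000198300, chromosome 19 from 56810077 to 56840728 on the minus strand), a large zinc finger protein, had 0, 0 and 0 counts on 18 listed transcripts. Its canonical transcript of 8754 bases and 10 exons has no own base. Other *PEG3* transcripts, 6 in number, and 3 transcripts of the gene ENSG00000286125 on the opposite strand overlap its last 300 bases.

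By mean TPM, the order was *MEST*, *MAGEL2*, *MEG3* and then the 7 genes at 0. *MEST* and *MAGEL2* overlapped between replicates. *MAGEL2* lay above *MEG3* when every replicate was compared with every other, but not in CPM or with mitochondrial genes left out. *MEG3* was at 0 like the other 7 in replicates 1 and 2. In the order of all genes, 20388 genes had a higher mean TPM than *MEST*, and *RP9P* and *THRB* stood directly above and below it, each at 0.171 TPM. *MAGEL2* was below 22491 genes and *MEG3* below 25947. With 3 replicates of 1 condition, no likeness of patterns was computed.

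A poly(A) signal, AATAAA or ATTAAA, was searched in the last 50 bases of the canonical transcript on its own strand, since the libraries were primed at the poly(A) tail. It was found in 4 of the 8 genes whose canonical transcript was listed, compared with 39.9% of 60173 canonical transcripts of all kinds. AATAAA starts 18 bases before the annotated end of *NDN*, 20 before that of *DLK1* and 6 before that of *PEG3*, and ATTAAA starts 14 before that of *IGF2*. Neither was found at the canonical ends of *MAGEL2*, *MEG3*, *MEST* and *PEG10*. The canonical transcript of *PEG10* ends at 94665698, whereas other listed transcripts reach up to 94669695. That of *MEG3* ends at 100829185, whereas others reach up to 100861031. These farther ends were not searched.

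Other genes of the same or neighbouring domains were set beside the 10 genes. Not all of these are imprinted. Of 47 such genes, 7 had a mean of at least 1 TPM and 22 were at 0 in every replicate, and the median of their mean levels was 0.0163 TPM. Over all 61193 genes, 21.7% had such a mean and 34962 were at 0 in every replicate. Near *H19* and *IGF2* on chromosome 11, *KCNQ1OT1*, the long antisense RNA that silences genes in *cis*, had 748, 444 and 869 counts and 1.49 ± 0.275 TPM (SD, n = 3). The strand setting of the counting is not known, so reads of this RNA cannot be told from reads of *KCNQ1*, on the other strand and listed at 0. Beside *MEG3* and *DLK1*, *DIO3*, which inactivates thyroid hormone, had 18, 15 and 13 counts and 1.56 ± 0.547 TPM (SD, n = 3). Beside *MEST*, the zinc finger gene *KLF14* had 31, 28 and 30 counts and 2.11 ± 0.511 TPM (SD, n = 3). All 3 have 1 listed transcript and were in the low range of expression, at or under the first quartile of the expressed genes, 2.40 TPM. Their TPM lay above that of *MAGEL2* and *NDN* in every replicate. TPM divides by the length of the whole transcript, although these libraries read the 3′ end. A long RNA such as *KCNQ1OT1* therefore gets a low TPM for its counts, and ranges of expression depend on length.

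Around *PLAGL1*, 3 of 5 genes had a mean of at least 1 TPM. *SF3B5*, a subunit of the splicing factor SF3b, had 15343, 15465 and 9873 counts and 4300 ± 1920 TPM (SD, n = 3). *LTV1*, which acts in ribosome assembly, had 12734, 12497 and 7657 counts and 1300 ± 600 TPM (SD, n = 3). Both were lowest in replicate 3, the library with the most mitochondrial counts, and the part of that share in the difference was not tested. *PHACTR2*, which binds actin and protein phosphatase 1, had 18.1 ± 4.08 TPM (SD, n = 3). *HYMAI*, an imprinted non-coding RNA that lies within *PLAGL1* on the same strand, had 7, 10 and 15 counts and 0.637 ± 0.162 TPM (SD, n = 3), under 1 TPM but with more than 3 counts in every replicate (named after its values were seen). Its end is all own bases. Beside *PEG3*, the zinc finger gene *ZNF264* had 29.2 ± 6.04 TPM (SD, n = 3). None of the 5 listed genes beside *PEG10* and none of the 8 beside *NDN* and *MAGEL2* reached a mean of 1 TPM.

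Of 15 imprinted genes elsewhere in the genome, 7 had a mean of at least 1 TPM and 5 were at 0. Over all genes, 21.7% had such a mean, and 38.2% of protein-coding genes. *GNAS-AS1* was highest with 30.4 ± 3.19 TPM, followed by *IGF2R* with 16.4 ± 3.28 TPM and *GNAS*, the stimulatory G protein subunit, with 13.8 ± 3.84 TPM (SD, n = 3). *IGF2R* and *GNAS* overlapped between replicates. The canonical transcript of *GNAS* has no own base among its last 300. *GNAS-AS1* runs antisense in the *GNAS* domain, so its value is uncertain without the strand. Over the 47 and 15 genes together, 18 of the 48 with an end that owns 75 bases had more than 3 counts in every replicate, compared with 0 of the 14 without. Among the 10 growth genes it was 0 of 6 and 0 of 4, and over all genes 22.0% and 5.5%. Of the 6, *IGF2* and *MEST* have such an end on retained-intron transcripts only. *PLAGL1* has it only on a transcript without a defined coding sequence.

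**Figure D4:**
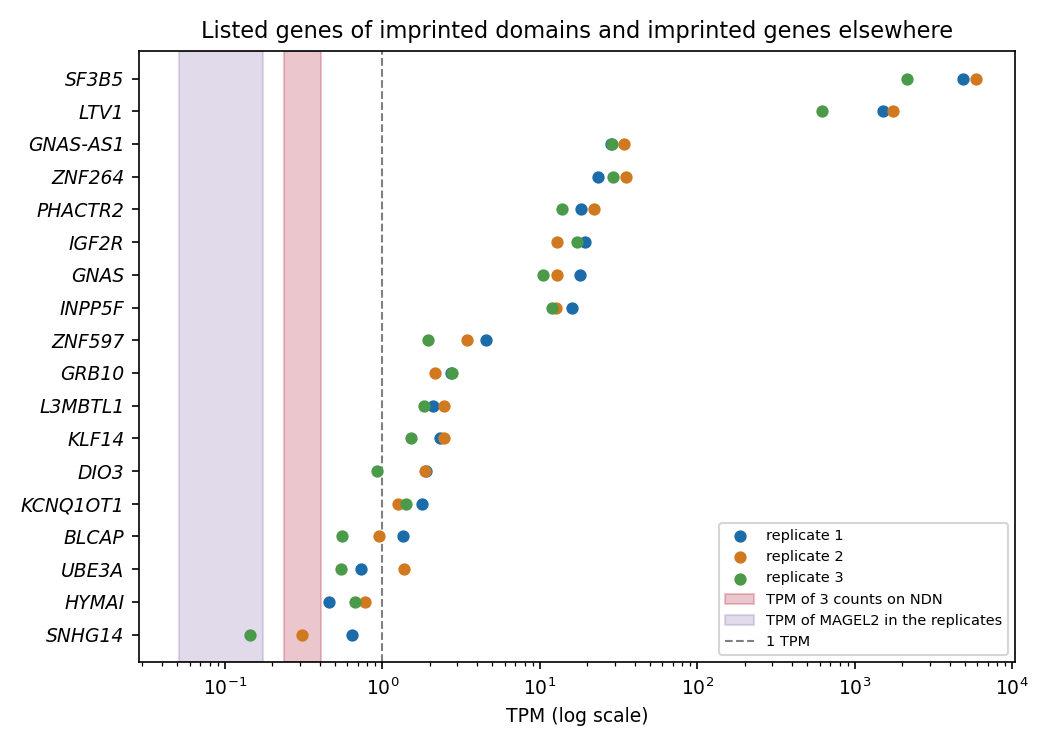
TPM (log scale) in replicates 1 to 3 of the 18 listed genes of imprinted domains and imprinted genes elsewhere with more than 3 counts in every replicate. The left band spans the TPM of *MAGEL2* (0.0510 to 0.174), the right band the TPM that 3 counts give on *NDN* (0.236 to 0.411), and the dashed line is 1 TPM. Of the 18 genes, *SNHG14* is the one that reaches into the bands.

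*IGF2* acts through receptors and adaptors. Of 17 genes of the insulin-like growth factor axis, 10 had a mean of at least 1 TPM and 6 were at 0. Their median was 3.61 TPM, compared with 0 over all genes of every type. All 17 are protein-coding, and 38.2% of protein-coding genes had a mean of at least 1 TPM. *IRS4* had 755, 795 and 605 TPM in replicates 1, 2 and 3. The mRNA-binding proteins *IGF2BP2* and *IGF2BP1*, named after *IGF2* mRNA, had 321 ± 50.6 and 232 ± 81.8 TPM (SD, n = 3). *IGF2R*, the receptor that takes *IGF2* to the lysosome, had 229, 187 and 330 counts. *IGF1R*, the receptor through which *IGF2* signals growth, was at 0 in every replicate, with no own base at the end of its canonical transcript, and was named after its values were seen.

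*DLK1* resembles the Notch ligands. Of 10 Notch receptors and ligands, 4 had a mean of at least 1 TPM, near the share of 38.2% over all protein-coding genes. The receptors *NOTCH2*, *NOTCH3* and *NOTCH1* were highest with 42.8 ± 7.93, 15.5 ± 1.23 and 9.37 ± 3.34 TPM (SD, n = 3). *DLK2*, the nearest relative of *DLK1*, had 1, 0 and 4 counts (named after its values were seen).

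Other MAGE genes with 1 listed transcript, like *NDN* and *MAGEL2*, ranged from near 0 to high levels. *MAGEF1* had 3587, 3342 and 4440 counts and 456 ± 61.0 TPM, and *MAGEH1* 915, 786 and 1083 counts and 132 ± 16.5 TPM (SD, n = 3). In every replicate their TPM lay above that of *NDN* and *MAGEL2*. *NSMCE3*, also with 1 listed transcript, had 0, 2 and 2 counts and a mean of 0.0566 TPM, and overlapped with *MAGEL2* between replicates (named after its values were seen). The ubiquitin protease *USP7*, a partner of *MAGEL2*, had 23.6 ± 8.02 TPM (SD, n = 3). The partner *TRIM27* was at 0 in every replicate, with no own base at the end of its canonical transcript (named after its values were seen). In this list, 6 of the 10 genes had a mean of at least 1 TPM, compared with 38.2% of protein-coding genes.

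Like *PEG10*, other genes descend from retrotransposon *gag*, and 5 of 12 had a mean of at least 1 TPM. Over all protein-coding genes, 38.2% did. *RTL8B*, *PNMA1* and *RTL6* had 185 ± 43.0, 169 ± 35.0 and 69.1 ± 18.0 TPM (SD, n = 3), each from 1 listed transcript. *RTL8B* has near-identical copies in *RTL8A* and *RTL8C*, with 0, 0 and 1 counts each (named after their values were seen), so the split among the 3 genes is uncertain. Neither *RTL8A* nor *RTL8C* has a transcript with 75 own bases at its end, whereas *RTL8B* has 1. *RTL1*, the relative within the *DLK1* and *MEG3* domain, has 1 listed transcript and was at 0 in every replicate.

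The relatives of *PLAGL1* were both expressed, *PLAGL2* with 33.9 ± 10.7 TPM and *PLAG1* with 21.2 ± 2.64 TPM (SD, n = 3). Of 8 factors that keep imprints, 3 had a mean of at least 1 TPM and 2 were at 0 in every replicate. Among protein-coding genes, 38.2% had such a mean. *SETDB1*, a histone H3 methyltransferase, had 48.7 ± 14.2 TPM, *DNMT1*, the maintenance DNA methyltransferase, 4.23 ± 1.66 TPM, and *CTCF* 1.24 ± 0.382 TPM (SD, n = 3). *DNMT1* had 16, 11 and 10 counts, and *CTCF* had 20, 12 and 23, with 0.798 TPM in replicate 2. The canonical transcripts of *DNMT1* and *CTCF* own 0% and 0.333% of their last 300 bases. *TRIM28*, the corepressor that binds imprinting zinc finger proteins, had 3, 3 and 1 counts on 15 listed transcripts, none of which owns 75 bases at its end (named after its values were seen).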

How the data were processed

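RNA-seq of HEK293T cells was used in 3 biological replicates of 1 condition. Per the labels, the submitters' processing notes name Trimmomatic 0.38.0, HISAT2 2.2.1 and featureCounts 2.2.1 with hg38. The authors deposited raw counts of whole reads for every Ensembl transcript. They also deposited TPM, that is counts over transcript length scaled to 1000000 per library, and recomputing it was the check made here. The strand setting and the treatment of reads on several transcripts are not given in the sources used here. The labels name the material genomic DNA, the methods total RNA. Identifiers were matched without version to GENCODE 44 on GRCh38 (223558 of 247541 transcripts), and counts and TPM were summed per gene. Deposited and annotated lengths were equal for 94.0% of transcripts and for 136 of the 148 of the imprinted growth genes, 11 of the others being of *H19*. The depth of 6262175 to 8521624 counts per library sets the limits given.

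Members and gene lists were chosen with earlier results of these data known. Genes named were all 10 members, up to 3 genes per list with the highest mean TPM of at least 1, and the genes next to the highest member. No test was made, as there is no contrast. SDs are over 3 replicates. Alternatives were other thresholds, the leading transcript only, CPM, scaling by edgeR 4.0.16 and DESeq2 1.42.0 factors, mitochondrial genes left out, the median, and each replicate left out. The functions were tested on simulated data. Python 3.11.15, numpy 2.4.6, pandas 2.3.3, scipy 1.17.1 and R 4.3.3 were used.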

Additional observations from a re-analysis of the deposited data

How the results depend on the processing

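The number of imprinted growth genes expressed was 0 under all alternatives except a mean TPM above 0, which gave 3. With at least 1 count in every replicate in place of more than 3, 1 gene was detected, *MAGEL2*, in place of 0. The order held 1 neighbouring pair without overlap, and 0 in CPM and with mitochondrial genes left out. Of the 62 other genes of imprinted domains and imprinted genes elsewhere, 14 were expressed, 35 with a mean TPM above 0 and 8 with a mean of at least 10. The cause was not tested beyond these thresholds. The summed level of the 10 genes was 0.282 TPM and between 0.140 TPM, without replicate 1, and 0.393 TPM, without replicate 2. With mitochondrial genes left out it was 0.400 TPM, with *MAGEL2* at 0.150 and *MEG3* at 0.0277 TPM. All counts of the 10 genes stood on 1 transcript per gene. Without replicate 1 *MEST* was at 0, without replicate 3 *MEG3* was at 0 and *MAGEL2* at 0.0557 TPM, and the 7 genes at 0 are at 0 under any scaling. No paired analysis was possible because 1 condition alone was measured. Depth limits all 10 genes. *H19*, *MEG3*, *PEG10* and *PEG3* have no transcript with 75 own bases at its end. *IGF2* and *MEST* have such an end on retained-intron transcripts only, and *PLAGL1* only on a transcript without a defined coding sequence. The part of this in the counts of these genes was not tested.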
